A study of Arabidopsis thaliana with 11 samples.

Results

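The genes described here are 9 loci of Arabidopsis thaliana that act in glucosinolate breakdown or are related to genes that do: the nitrile specifier genes NSP1 to NSP5, the jacalin-related lectin genes JAL22 and JAL23, and the root myrosinase genes TGG4 and TGG5. They were picked by locus identifier from the 28495 genes of each deposited table, with their differences between mutants and wild type already known. Their means and fold changes are therefore given as a description, and the authors' adjusted p-values beside them are no independent test. Root tips of 4 groups were sequenced in 11 libraries: wild-type Col-0 (3 libraries), crn-3, labelled coryne-3 (2), clv2-gabi, labelled clavata2-gabi (3), and cle40-2 (3). All groups share the Col-0 background. The mutants concern CLE peptide signalling in the root meristem, CLE40 being a secreted peptide, CLV2 a receptor-like protein and CRN its membrane partner. The labels do not describe what each allele does to its gene, give no plant age, and do not say whether the libraries of a group came from separate cultures. In bulk RNA, fewer cells of a type and less RNA per cell cannot be told apart.

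Glucosinolates are sulphur-containing glucosides of the cabbage family and its relatives. Myrosinases cleave off the glucose, after which the unstable product rearranges to an isothiocyanate unless a specifier protein diverts it. Nitrile specifier proteins, built around Kelch repeats, divert it to a simple nitrile. NSP1 to NSP4 also carry jacalin-like lectin sequence, and NSP5 does not. TGG4 and TGG5 are the myrosinases known from roots, whereas TGG1 and TGG2 are those of the shoot. Several jacalin-related lectins are found in a complex with PYK10, a root beta-glucosidase stored in ER bodies.

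NSP3 (AT3G16390, chr3:5562400-5564574), NSP1 (AT3G16400, chr3:5566083-5568545) and NSP4 (AT3G16410, chr3:5571903-5574758) stand side by side on the plus strand, with gaps of 1508 and 3357 bases (TAIR10.1, RefSeq annotation). Their coding sequences are 92.2% identical between NSP1 and NSP3, 94.8% between NSP1 and NSP4 and 90.7% between NSP3 and NSP4. Whether reads of such copies can be told apart bears on each value of the trio. The 60-base coding stretch in which they are most alike (coding positions 1314 to 1373 of NSP3, 1323 to 1382 of NSP1 and 1770 to 1829 of NSP4) differs at 1 position, shown in capitals.
NSP3: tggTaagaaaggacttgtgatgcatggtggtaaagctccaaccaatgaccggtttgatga
NSP1: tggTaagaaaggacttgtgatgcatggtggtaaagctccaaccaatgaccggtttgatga
NSP4: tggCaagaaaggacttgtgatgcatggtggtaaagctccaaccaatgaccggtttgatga
The 60-base stretch in which they are least alike (coding positions 390 to 449 of NSP3 and of NSP1, and 837 to 896 of NSP4) has 18 positions that are not the same in all copies, again in capitals.
NSP3: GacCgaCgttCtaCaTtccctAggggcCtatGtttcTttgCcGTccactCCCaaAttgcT
NSP1: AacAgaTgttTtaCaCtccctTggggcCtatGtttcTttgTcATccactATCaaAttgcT
NSP4: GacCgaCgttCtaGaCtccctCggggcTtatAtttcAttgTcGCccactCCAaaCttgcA
Windows of 50 bases within the exons that occur once in the nuclear genome made up 98.8% of all windows for NSP3, 70.0% for NSP1 and 76.2% for NSP4. NSP1 shared 29.4% of its windows with NSP4 and 1.08% with NSP3. A read lying wholly within such a window cannot be assigned to a gene by sequence, whereas a longer or paired read may be. The 50 bases were set for this search and are not the read length. How the authors counted such reads is not stated in the labels or tables.

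TGG4 (AT1G47600, chr1:17491731-17494779) and TGG5 (AT1G51470, chr1:19087384-19090523) lie on the plus strand with 13 exons each. Their coding sequences are 97.7% identical, and 75.0% and 76.7% of their windows were unique. The likeness goes on upstream of the annotated starts, where the last 150 bases (chr1:17491581-17491730 for TGG4 and chr1:19087234-19087383 for TGG5) differ at 3 of 149 aligned positions. Over 250 bases upstream the pair differs at 34 of 220 aligned positions. Any part of these stretches in the levels of the pair was not tested. They are shown for their likeness, with the letters TATAAA, searched on both strands, in capitals.
TGG4: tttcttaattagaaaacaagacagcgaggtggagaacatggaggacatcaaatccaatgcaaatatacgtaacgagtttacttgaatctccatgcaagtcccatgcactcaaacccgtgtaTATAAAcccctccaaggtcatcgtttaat
TGG5: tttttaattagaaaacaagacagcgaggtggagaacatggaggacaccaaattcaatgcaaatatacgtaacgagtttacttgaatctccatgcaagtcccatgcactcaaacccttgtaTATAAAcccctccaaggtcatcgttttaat
TATAAA on either strand occurs within 250 bases upstream of 47.4% of the 27443 protein-coding genes searched. Among the 9 members it was found for NSP2, TGG4 and TGG5 (positions -87, -29 and -30 from the gene start). The G-box CACGTG, present in 6.49% of those windows, was found in 0 of the 9 members' windows. The letters TTGACC, a form of the W-box, lie on either strand in 12.2% of those windows, and among the 9 members in those of NSP3 and NSP4 (positions -10 and -111 from the gene start). The remaining members are NSP2 (AT2G33070, chr2:14028282-14031164), NSP5 (AT5G48180, chr5:19540937-19542760), JAL22 (AT2G39310, chr2:16414034-16416845) and JAL23 (AT2G39330, chr2:16419483-16422158), all on the minus strand. Of their windows, 99.94% to 100% were unique, and the coding sequences of JAL22 and JAL23 are 86.7% identical. No other annotated gene overlaps any of the 9.

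The deposited tables give, for each mutant, 1 value for each group, read here from the numbers themselves as a rounded mean of normalized reads, a fold change (mutant over Col-0) and an adjusted p-value. They give no value per library, so no spread between libraries can be shown and depth per library is unknown. A gene was called changed at an adjusted p under 0.05. The mutated genes were not lower in the mutants, CLE40 being too low in both groups to compare: in the authors' deposited tables CRN had means of 91 in Col-0 and 111 in crn-3, CLE40 of 1 in Col-0 and 3 in cle40-2, and CLV2 of 198 in Col-0 and 4248 in the libraries labelled clv2-gabi. The group names below therefore rest on the labels. All 13 root tip markers examined, such as the stem cell regulators PLT1 and PLT2 and the root cap factor SMB, had means above 0 in all groups. The shoot myrosinase gene TGG1 was listed at 0 in all groups of the authors' deposited tables. Green tissue markers as a set were not at 0, and all 10 were called higher in cle40-2, where 3.21% of all tested genes were. Their summed mean was 354 in Col-0 and 1301 in cle40-2.

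The authors' tables hold an adjusted p for 8 of the 9 genes, and 7 had an average mean of at least 10. In crn-3, 0 of the 8 were called, where 0.439% of all tested genes were (0.189% higher and 0.25% lower). In the libraries labelled clv2-gabi 1 was called higher and 1 lower, where 0.3% of all tested genes were higher and 1.59% lower (1.89% in all). In cle40-2 1 was called higher and 3 lower, where 3.21% of all tested genes were higher and 1.94% lower (5.15% in all). The called genes were NSP1 and NSP3 in the libraries labelled clv2-gabi, and NSP1, NSP3, NSP4 and JAL22 in cle40-2. No reading of these counts against the background is made, since the same contrasts chose the genes.

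**Figure D1:**
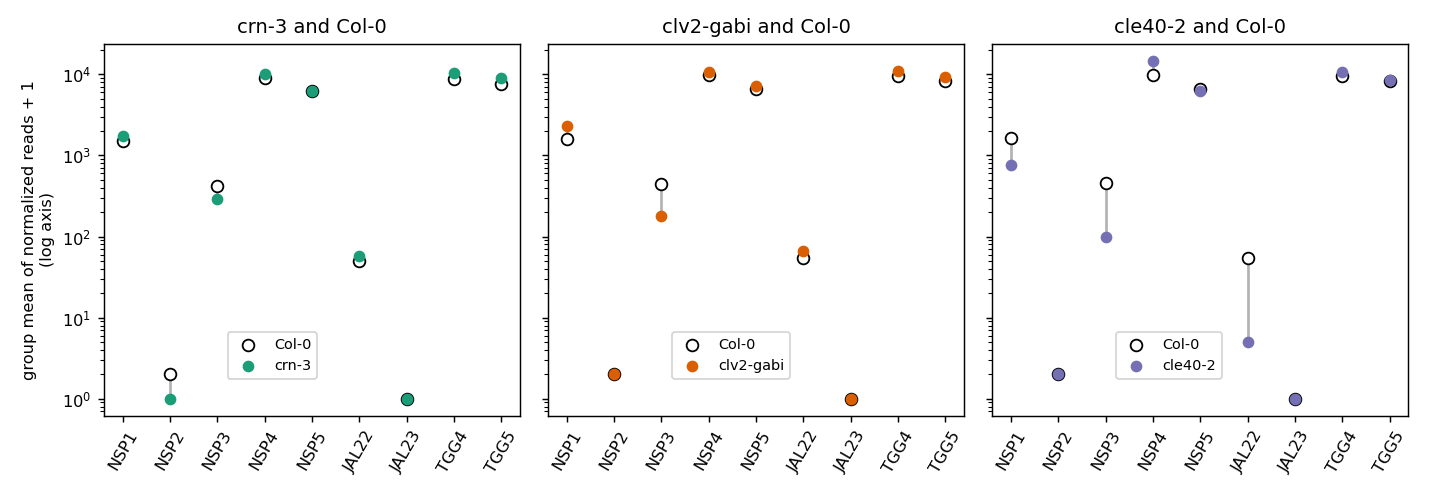
Group means of normalized reads plus 1 (log axis) of the 9 genes in Col-0 (open circles) and in the mutant (filled circles), 1 panel for each deposited table. Each point is the authors' mean of 2 or 3 libraries. The Col-0 and cle40-2 points lie farthest apart for JAL22 and NSP3.

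NSP3 was lower than Col-0 in all 3 tables, by different amounts. In the authors' deposited table of crn-3 the Col-0 mean was 416 and the mutant mean 286, a fold change of 0.69 that was not called (adjusted p = 0.5). For the libraries labelled clv2-gabi the authors' deposited table lists means of 449 and 178, a fold change of 0.40 with an adjusted p that rounds to 0. For cle40-2 they were 451 and 99 in the authors' deposited table, a fold change of 0.22 with an adjusted p that rounds to 0. Relative to Col-0 the level was lowest in cle40-2 and highest in crn-3. All 3 comparisons use the same Col-0 libraries, and the differences between mutants were not tested. As a measure of the spread, the central 95% of fold changes among the 500 genes nearest in mean was 0.81 to 1.19 for the crn-3 table, 0.69 to 1.27 for that of clv2-gabi and 0.72 to 1.5 for that of cle40-2. NSP3 lay below each of these ranges, which hold real changes as well as error.

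NSP1, the specifier known for nitrile formation in leaves and seedlings, went in opposite directions in 2 of the mutants. In the authors' deposited table of the libraries labelled clv2-gabi the Col-0 mean was 1613 and the mutant mean 2326, 1.44-fold higher with an adjusted p of 0.01. In cle40-2 the authors' deposited table lists 1621 and 759, a fold change of 0.47 with an adjusted p that rounds to 0. In crn-3 the means in the authors' deposited table were 1496 and 1734, a fold change of 1.16 that was not called (adjusted p = 1). The central 95% at its mean was 0.82 to 1.14 for crn-3, 0.80 to 1.18 for clv2-gabi and 0.75 to 1.35 for cle40-2, so that NSP1 lay above the first and second range and below the last. The difference between the mutants was not tested.

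NSP4 had the highest mean of the trio in every group. Its mean in the authors' deposited table of cle40-2 rose from 9796 in Col-0 to 14639, 1.49-fold with an adjusted p of 0.006. In crn-3 and in the libraries labelled clv2-gabi the fold changes in the authors' deposited tables were 1.1 and 1.11, with an adjusted p of 1 in each. NSP4 therefore stood above the central 95% of 0.74 to 1.3 in cle40-2 while its neighbours NSP1 and NSP3 stood below theirs. Of the summed means of the trio, NSP4 made up 82.5% in Col-0 and 94.5% in cle40-2, NSP1 13.7% and 4.90%, and NSP3 3.8% and 0.639%. The sum itself was 11868 in Col-0 and 15497 in cle40-2, a ratio of 1.31. The part in these shares of reads that match both NSP1 and NSP4 was not tested.

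**Figure D2:**
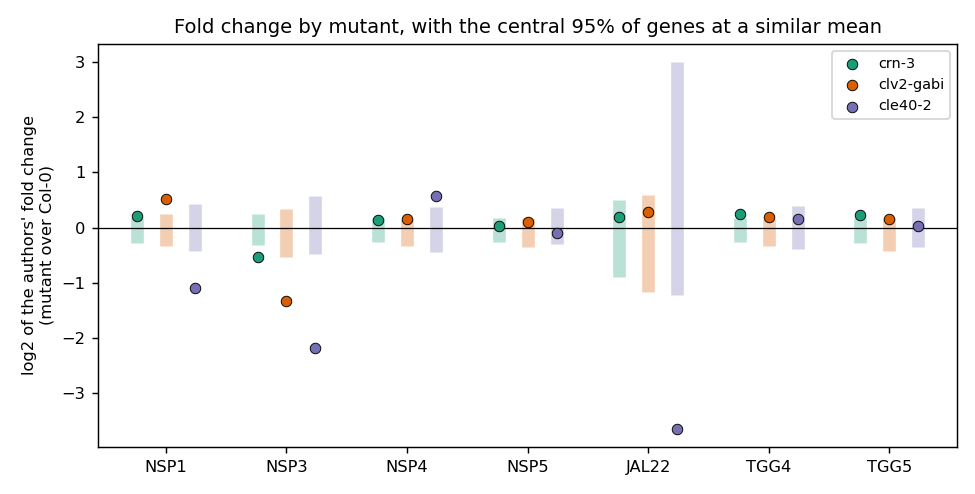
Log2 of the authors' fold change (mutant over Col-0) of the 7 genes with an average mean of at least 10, by mutant (points), with the central 95% of fold changes of the 500 genes nearest in mean (bars). NSP3 lies below its bar in all 3 mutants, NSP1 above it in crn-3 and clv2-gabi and below it in cle40-2, and JAL22 below it in cle40-2 alone.

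NSP5, the Kelch-only specifier on chromosome 5, was listed at 6679 in Col-0 and 6310 in cle40-2 in the authors' deposited table, a fold change of 0.94. Its fold changes in the authors' deposited tables of crn-3 and clv2-gabi were 1.02 and 1.08, and none of the 3 was called (adjusted p = 1 in each). NSP2, a specifier known from seeds, had means of 0 or 1 in every group of the authors' deposited tables and cannot be compared. In the authors' deposited table of cle40-2, NSP2 was listed at 1 in both groups, while 3 of 9 seed markers were called higher. Over all tested genes the share called higher was 3.21%. Of the 9, the storage protein gene CRU3 went from a mean listed as 0 to 383, whereas OLEO1, from 1 to 2, was not called. SESA1 to SESA4 and OLEO2 were listed at 0 in both groups.

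The lectin gene JAL22 had the largest fold difference of the 9 in cle40-2. Its mean in the authors' deposited table fell from 53 in Col-0 to 4 in cle40-2, a fold change of 0.08 with an adjusted p that rounds to 0. The authors' deposited tables list 49 in Col-0 and 56 in crn-3, and 53 in Col-0 and 65 in the libraries labelled clv2-gabi, fold changes of 1.14 and 1.22 that were not called (adjusted p = 1 in each). Fold changes at this low mean spread widely in cle40-2, with a central 95% from 0.43 to 7.99, and JAL22 lay below it. On the log2 scale its ratio was -3.43 with a pseudocount of 1 and -2.17 with a pseudocount of 10, where NSP3 had -2.18 and -2.08. JAL23, its nearest copy here, with AT2G39320 lying between the pair, was listed at 0 in all groups. With 99.95% of its windows unique, JAL22 shares 1 window with JAL23. Of the 21 genes around the pair (10 on each side of each gene), 1 was called higher and 0 lower in cle40-2. Over all tested genes the shares were 3.21% and 1.94%. The called gene was the transporter gene ABCG1 (1.58-fold, authors' deposited table). In the libraries labelled clv2-gabi 1 of the 21 was called lower, AT2G39420 at 0.62 per the authors' deposited table, where 1.59% of all tested genes were. Counts this small are close to those shares and are not read as a result about the neighbours.

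The myrosinase genes TGG4 and TGG5 were called in no table. In the authors' deposited table of crn-3, the Col-0 and mutant means were 8810 and 10379 for TGG4 (fold change 1.18), and 7688 and 8962 for TGG5 (1.17). In the libraries labelled clv2-gabi the authors' deposited table gave fold changes of 1.14 for TGG4 and 1.11 for TGG5, and in cle40-2 of 1.12 and 1.02. Adjusted p-values ran from 0.911 to 1. In crn-3 both lay above the central 95% at their mean, of 0.83 to 1.13, without being called, as did TGG4 in clv2-gabi (0.80 to 1.11). TGG4 and TGG5 share 25.0% and 23.3% of their windows with each other, and reads lying wholly within those windows cannot be told apart by sequence. Their summed means were 16498 in Col-0 and 19341 in crn-3, a ratio of 1.17, and the ratio was 1.07 in cle40-2.

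Per kilobase of exon, the order of levels in Col-0 (in the cle40-2 table) was TGG4 with 5407 normalized reads per kb, TGG5 with 4501, NSP4 with 4061, NSP5 with 3863, NSP1 with 831, NSP3 with 262 and JAL22 with 26.3. In cle40-2 NSP4 came first with 6069 per kb, next to TGG4 with 6032, followed by TGG5 with 4574, NSP5 with 3650, NSP1 with 389, NSP3 with 57.6 and JAL22 with 1.98. Without values per library, whether close neighbours in this order differ cannot be said. The share of unique windows also differed, from 70.0% for NSP1 to 100% for NSP5. How reads from shared windows were counted is not stated, so the order may depend on it.

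The trio on chromosome 3 sits among genes that were higher in cle40-2. This was known from the same values before the neighbours were counted, so the counts describe the stretch and are no independent test. Of the 20 nearest genes, 10 on each side, 19 had an adjusted p, and 14 of those were called higher and 1 lower, where 3.21% of all genes were called higher and 1.94% lower. The 16 neighbours with an average mean of at least 10 had a median fold of 1.79. In crn-3 and in the libraries labelled clv2-gabi 0 of the 20 were called, where 0.439% and 1.89% of all tested genes were. The median folds were 1.03 and 1.01. Upstream of NSP3 the calls in the authors' deposited table were EMB2083 at 2.05-fold, AT3G16300 at 1.79, AT3G16310 at 2.23, the cell cycle gene CDC27a at 1.79, AT3G16330 at 1.60, the transporter gene ABCG29 at 1.63 and AT3G16350 at 1.90. On the far side the authors' deposited table lists fold changes of 2.03 for MPPalpha, 1.56 for IQD26 and 2.21 for PAP1, besides 4 jacalin genes. Only AT3G16370, which starts 9.37 kb before NSP1, was called lower, from 95 to 17 (0.18) in the authors' deposited table. NSP3 and NSP1 were thus 2 further genes with a fall in the stretch, next to AT3G16370, PAB6 between AT3G16370 and NSP3 being listed at 0. Divided by the neighbours' median, the fold change was 0.123 for NSP3, 0.263 for NSP1 and 0.832 for NSP4 in cle40-2. In the libraries labelled clv2-gabi the same quotients were 0.396 for NSP3 and 1.43 for NSP1.

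**Figure D3:**
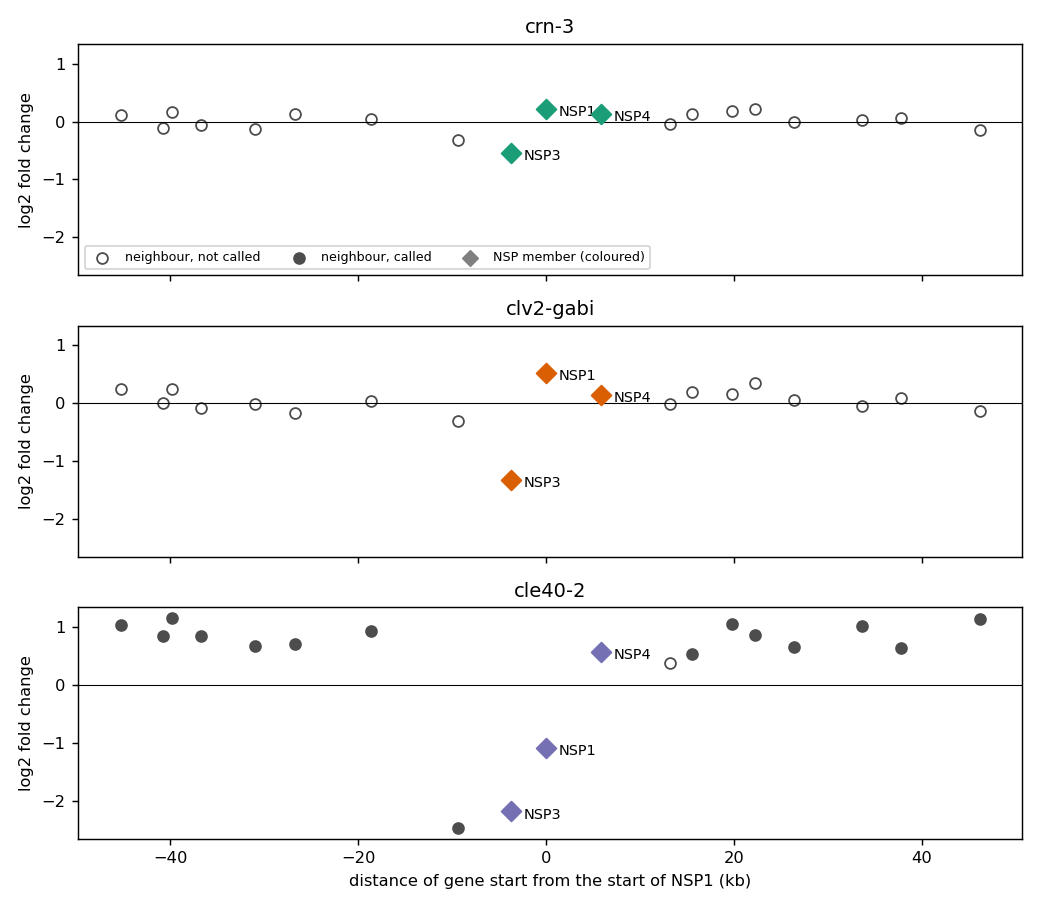
Log2 of the authors' fold change of NSP1, NSP3 and NSP4 (diamonds) and of the 16 of their 20 nearest genes with an average mean of at least 10 (circles, filled where called), against the distance of the gene start from that of NSP1 in kb, by mutant. In cle40-2 the neighbours lie above 0 on both sides, with NSP3, NSP1 and AT3G16370 below 0.

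Past NSP4 come 6 jacalin-related genes, AT3G16420 to AT3G16470, of the same kind as the lectin part of the specifiers. In cle40-2 the calls were 4 rises and 0 falls, where 3.21% of all tested genes were called higher and 1.94% lower. These 4 are among the 14 neighbours of the trio called higher, in a stretch with a median fold of 1.79. Per the authors' deposited table AT3G16440 rose from 4869 to 10092 (2.07-fold), JAL33 from 1639 to 2991 (1.82-fold), JAL34 from 35059 to 55207 (1.57-fold) and JAL31 from 1732 to 2491 (1.44-fold). PBP1, which binds PYK10, had means of 23884 and 30980 in the authors' deposited table (fold change 1.3, adjusted p = 0.171), and JAL35 of 5 and 7. The annotated spans of JAL34 and JAL35 overlap. None of the 6 was called in the other mutants, where their fold changes spanned 0.90 to 1.16 (crn-3) and 0.53 to 1.28 (clv2-gabi).

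In the other neighbourhoods the counts in cle40-2 were 0 or 1, where 5.15% of all tested genes were called. Around TGG4 1 of 20 genes was called higher, around TGG5 and NSP5 0 of 20, and around NSP2 1 of 20 was called lower. The called genes were 5PTASE11 at 2.15-fold near TGG4 and GH9B8 at 0.54 near NSP2 in the authors' deposited table.

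The rest of the pathway was followed through 79 genes of glucosinolate synthesis, transport and breakdown and of ER bodies. In crn-3 and in the libraries labelled clv2-gabi 0 of them were called, of 69 and 68 with an adjusted p. Of all tested genes 0.439% and 1.89% were called in these mutants, so few calls would be due in lists of this size. In cle40-2, 7 were called higher and 6 lower of 72 with an adjusted p, which is 18.1%, where 5.15% of all tested genes were called (3.21% higher and 1.94% lower). Without the 6 jacalin genes beside NSP4, 3 were higher and 6 lower of 66, which is 13.6%, and the 45 with an average mean of at least 10 had a median fold of 0.878, where the median over all 18406 such genes was 1.00.

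Among genes of indole glucosinolate synthesis, 12 of the 14 with an average mean of at least 10 lay below Col-0 in cle40-2, with a median fold of 0.823, and 2 of 16 were called lower and 1 higher, where 1.94% and 3.21% of all tested genes were. In the authors' deposited table GSTF9, a glutathione transferase gene, fell from 17244 to 9956 (0.58, adjusted p rounding to 0). CYP83B1, which commits the pathway to indole glucosinolates, fell from 2501 to 1688 (0.67, adjusted p = 0.002) in the authors' deposited table. IGMT2, a methyltransferase gene that reached an average of 10 in this comparison alone, rose from 8 to 26 in the authors' deposited table (adjusted p = 0.041). The regulator gene MYB34 at 0.88 and the entry enzyme genes CYP79B2 at 0.82 and CYP79B3 at 0.68 in the authors' deposited table were not called (adjusted p = 0.824, 0.426 and 0.105).

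Of the 26 aliphatic genes, 17 had means under 10 in all groups of all tables. Only 1 was called, in cle40-2, where 5.15% of all tested genes were. GSTU20, a glutathione transferase gene, fell from 176 to 61 in cle40-2 per the authors' deposited table (0.35, adjusted p rounding to 0). Genes shared by the branches, such as the C-S lyase gene SUR1 at 0.81 in the authors' deposited table of cle40-2, gave 0 calls of 6. In cle40-2, 5 of the 6 lay below Col-0, the median fold over all genes with an average mean of at least 10 being 1.00. Nitrilase genes, whose enzymes hydrolyse nitriles, gave 0 calls of 4, with 2 above Col-0 and 2 below. At a share of 5.15% over all tested genes, few calls would be due in lists of 6 or 4 genes. NIT2 stood at 1.24 (adjusted p = 0.304), NIT4 at 1.37 (0.102), NIT1 at 0.83 (0.455) and NIT3 at 0.94 (0.999) in the cle40-2 table of the authors' deposited tables.

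In the ER body list 6 of 19 genes with an adjusted p were called higher in cle40-2 and 3 lower, beside 3.21% and 1.94% of all tested genes. Besides the jacalin genes, BGLU18 and BGLU19 went from means listed as 0 to 41 and 66 in the authors' deposited table. These beta-glucosidase genes passed the mean of 10 in cle40-2 alone. The 3 lower genes are named after their values were seen. BGLU21 fell from 42437 to 30747 (0.72, adjusted p = 0.037), GLL23 from 5703 to 3835 (0.67, adjusted p = 0.004) and the lectin gene MBP1 from 13 to 2 (0.13, adjusted p = 0.008) in the authors' deposited table. PYK10 itself had means of 50951 and 43769 (0.86, adjusted p = 0.665), and the ER body regulator gene NAI1 of 1157 and 1091 (0.94, adjusted p = 1), in the authors' deposited table. The ER body protein gene NAI2 stood at 0.82 in the authors' deposited table (adjusted p = 0.405).

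Of the other myrosinase and specifier genes PEN2, an atypical myrosinase gene, stood at 1319 in Col-0 and at 1559 in cle40-2 per the authors' deposited table (1.18, adjusted p = 0.551). The other 6 of this list, among them ESP, the epithiospecifier gene, and ESM1, had means under 10 in all groups.

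**Figure D4:**
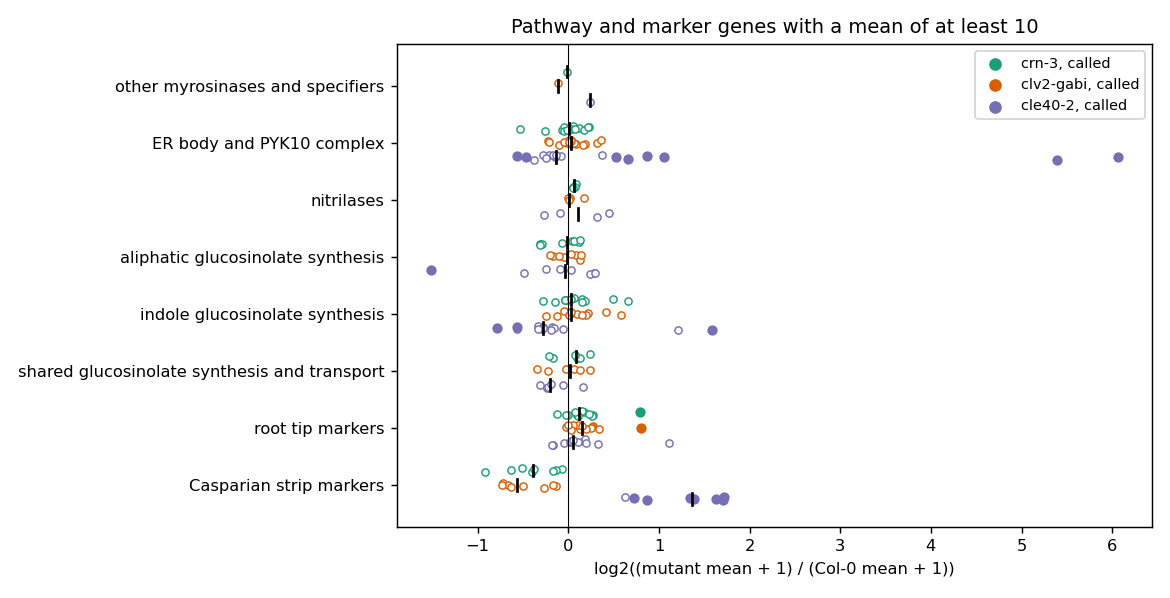
Log2((mutant mean + 1) / (Col-0 mean + 1)) of the genes of 6 pathway lists and 2 marker lists with an average mean of at least 10, by mutant. Filled points were called, open points were not, and black ticks are medians. Calls in the pathway lists are those of cle40-2, and the indole synthesis median for cle40-2 lies to the left of 0.

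Markers of other tissues moved in the same cle40-2 libraries. All 10 green tissue markers were called higher, where 3.21% of all tested genes were, their summed mean going from 354 to 1301, and 3 of 9 seed markers, from 3 to 500, with the SESA genes listed at 0. Casparian strip markers of the endodermis had 7 of 8 called higher, with a sum of 567 in Col-0 and 1243 in cle40-2. In the authors' deposited table the photosynthesis genes LHCB2.1 went from 1 to 256, LHCB1.1 from 2 to 36, and FBA2, LHCA2 and RBCS1A from means listed as 0 to 68, 60 and 54. The seed storage gene CRA1, listed at 0 in Col-0, had a mean of 67, and CRU2 rose from 2 to 48 in the authors' deposited table. The Casparian strip genes CASP2, CASP1, PER64 and ESB1 were 3.43, 3.27, 3.12 and 1.83-fold higher in the authors' deposited table. Of these 3 lists the other mutants had 1 call each. CRU3 went from a mean listed as 0 to 15 in crn-3 (adjusted p = 0.002), and the light-harvesting gene LHCA4 from 221 to 337 in clv2-gabi (1.52-fold, adjusted p = 0.019) in the authors' deposited tables. The root tip markers had 0 of 13 called there, with sums of 8331 and 8644, and 1 called in each of the other mutants, AT1G65570 with fold changes of 1.73 (crn-3) and 1.74 (clv2-gabi) per the authors' deposited tables. The Casparian sums were 524 in Col-0 against 435 in crn-3, and 564 against 454 in clv2-gabi. Green tissue sums were 328 against 367 in crn-3, and 353 against 527 in clv2-gabi. Their part in the values of NSP1, NSP3, NSP4 and JAL22 was not tested.

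Genes with a pattern most like that of a called member were found by the Euclidean distance of the log2 ratios over the 3 mutants, which share the Col-0 libraries, among the 16373 genes whose mean reached 50 in some group. For NSP1 the nearest were the MADS-box gene AGL17 (distance 0.117, with fold changes of 1.18, 1.33 and 0.46 in crn-3, clv2-gabi and cle40-2 in the authors' deposited tables), AT1G62500 (0.135) and NdhO (0.159). Neither NSP3 nor JAL22 had a partner as close, the nearest to NSP3 being AT5G04120 at 0.707, SQP2 at 0.817 and OCT3 at 0.907. NSP4 was nearest to COBL1 at 0.015, AT5G67488 at 0.05 and SYN2 at 0.052. JAL22 was nearest to PIN1AT at 0.734, SR at 0.995 and ASPGB1 at 1.12. The distance was not scaled to the size of the ratios, which in cle40-2 were largest for JAL22 (-3.43) and NSP3 (-2.18). Distances of different members therefore do not show how distinct their patterns are.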

How the data were processed

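Root tip RNA of 4 groups (Col-0, crn-3, clv2-gabi and cle40-2, 11 libraries) was compared through 3 deposited tables, each setting a mutant against Col-0. The deposited group values are whole numbers, 1 for each group and gene, headed only by the group name per the file headers. They were read as rounded group means of normalized counts, from the values alone, since Col-0 differs between tables by a near constant factor. These deposited values are treated as scores, and no count model was fitted. The deposited fold change is a ratio of the means, to 2 decimals, and the deposited adjusted p-value has 3 decimals, so a value printed as 0 rounds to 0. The submitters' processing notes name CASAVA 1.8.2, DESeq without a version and the build TAIR10. No source used here names the aligner, the counting tool or the annotation. Col-0 means differed between tables by factors of 1.08 and 1.08, so levels were compared within a table.

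A gene was called at an adjusted p under 0.05. Log2 ratios used a pseudocount of 1, and list medians genes with an average mean of at least 10. Of the identifiers 28008 matched TAIR10.1 (RefSeq), from which symbols, coordinates and sequences came, and 487 did not. AOP2 of the aliphatic list was not analysed here. Windows of 50 bases in the exons of the transcript with the longest coding sequence were matched exactly to the nuclear chromosomes, and coding sequences and upstream stretches were aligned in pairs with MAFFT 7.526. The members and lists were chosen with earlier results of these data known. Named were all members, called list genes (up to 5 per list and table, 1 of which is not reported here), some pathway genes whatever their values, called neighbours and the 3 genes nearest in pattern. Alternatives covered the threshold, size of change, low means, neighbour window, pseudocount and centring. Leaving out 6 jacalin genes was chosen after seeing the data. Python 3.11.15 and pandas 2.3.3 were used.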

Additional observations from a re-analysis of the deposited data

How the results depend on the processing

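No paired analysis was possible because the tables hold group means and no column carries a replicate number. Leaving out a replicate could not be run for the same reason. In clv2-gabi the count of called members was 2. It was 1 at an adjusted p under 0.01 and 1 with a log2 ratio of at least 1 in size, NSP1 being the gene lost. The deposited adjusted p of NSP1 is 0.01 after rounding, so whether it lies under 0.01 cannot be told. In crn-3 it was 0 under every threshold tried, and in cle40-2 it was 4, or 3 with the requirement on size, which NSP4 misses. The pathway count in cle40-2 was 13, and 6 with a log2 ratio of at least 1. Among the genes around NSP1, NSP3 and NSP4 the cle40-2 count was 15, and 6 with a log2 ratio of at least 1, 6 with 5 genes on each side and 26 with 20. With 20 on each side 1 gene was called in crn-3 and 1 in clv2-gabi, against 0 with 10. The window's own width sets these last counts. Among the 7 members with an average mean of at least 10, no log2 ratio changed sign under a pseudocount of 10, the authors' fold change without a pseudocount, or centring on the median of all genes. In size JAL22 in cle40-2 went from -3.43 to -2.17 with a pseudocount of 10. A fold change of a gene with means near 0, such as NSP2, JAL23 or most aliphatic genes, cannot be judged at these levels.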
